A study of Mus musculus with 8 samples.

Results

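Cxcr2, Cxcr4 and Ccrl2 are 3 of the 10970 genes counted in single neutrophils of mouse peripheral blood (PB) and bone marrow (BM), and were taken from the table by name. All 3 passed the filter on low counts. Donor mice received an intraperitoneal injection of PBS or of LPS, a bacterial cell wall component, at 0.5 mg/kg. The study's methods prepare the cells 4 h after either injection, whereas the titles mark PBS samples as 0 h and LPS samples as 4 h, so that the LPS groups and the PBS groups may also differ in time after injection. The 4 groups are PBS-primed PB, LPS-primed PB, PBS-primed BM and LPS-primed BM neutrophils, with 2 labelled samples each. The labels name no strain or genotype, and the methods give male mice of 7 to 12 weeks for all experiments. Neutrophils were enriched with a kit and picked one by one for SCRB-seq, in which every cell has a barcode and every captured transcript a unique molecular identifier (UMI).

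CXCR2, a G protein-coupled receptor of neutrophils, binds CXCL1 and CXCL2 and drives their release from marrow and their recruitment to inflamed tissue. CXCR4 binds CXCL12, which stromal cells of the marrow produce, and holds neutrophils there. Aged neutrophils of the blood carry more of it and return to the marrow. CCRL2 is an atypical receptor that binds chemerin without starting the usual G protein signal, is induced by inflammatory stimuli, and can pair with CXCR2 on the neutrophil surface.

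In the mm9 build used for the counts, Cxcr2 (ENSMUSG00000026180.7) lies on the plus strand of chromosome 1 at 74200563 to 74207812. Cxcr4 (ENSMUSG00000045382.6) lies on the minus strand of chromosome 1 at 130484776 to 130488870, and Ccrl2 (ENSMUSG00000043953.8) on the minus strand of chromosome 9 at 110957339 to 110959774. GENCODE vM1 places no other gene over any of them. The transcript with the longest coding sequence has 2 exons in each gene, and its 3′ UTR covers 74206000 to 74207812 in Cxcr2, 130484776 to 130485422 in Cxcr4 and 110957339 to 110957852 in Ccrl2.

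The 250 bases before the transcription start are shown because the members differed in their response to LPS. The sequences are RefSeq's for GRCm38.p6, with chr1:74153744-74153993 (plus strand) for Cxcr2, chr1:128592300-128592549 (minus strand) for Cxcr4 and chr9:111057519-111057768 (minus strand) for Ccrl2, the most upstream of its 3 listed windows. Capitals mark matches on either strand to the NF-κB consensus, the STAT site TTCNNNGAA, the IRF site GAAANNGAA or the PU.1 core GAGGAA.
Cxcr2: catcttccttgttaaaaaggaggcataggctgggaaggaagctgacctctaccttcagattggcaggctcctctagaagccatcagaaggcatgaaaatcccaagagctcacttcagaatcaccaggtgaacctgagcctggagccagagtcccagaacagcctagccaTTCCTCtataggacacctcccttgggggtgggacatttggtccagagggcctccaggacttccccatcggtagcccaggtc
Cxcr4: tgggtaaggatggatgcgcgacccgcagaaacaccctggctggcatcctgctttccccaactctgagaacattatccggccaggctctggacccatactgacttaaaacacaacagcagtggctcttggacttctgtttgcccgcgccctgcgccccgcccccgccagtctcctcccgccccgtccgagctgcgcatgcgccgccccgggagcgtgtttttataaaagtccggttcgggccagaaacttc
Ccrl2: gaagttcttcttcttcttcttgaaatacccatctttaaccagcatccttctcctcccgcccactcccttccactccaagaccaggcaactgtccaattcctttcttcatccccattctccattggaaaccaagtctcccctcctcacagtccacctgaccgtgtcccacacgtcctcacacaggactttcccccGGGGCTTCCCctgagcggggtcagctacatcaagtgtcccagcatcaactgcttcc

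Ccrl2 held 1 match to the NF-κB consensus, beginning 56 bases before the start, and Cxcr2 held 1 match to the PU.1 core, 81 bases before it. Cxcr4 held 0 matches, and no member held the STAT or the IRF site. Of 27025 promoters of the same length, 3.75% hold the NF-κB consensus, 23.1% the PU.1 core, 7.18% the STAT site and 7.16% the IRF site. A match describes letters and was not tested for binding.

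The table holds 1421 cells. The 711 cells of batch 7 carry names of the 8 labelled samples, with 83 to 92 cells and 3240559 to 8361677 UMIs per sample. For the 710 cells of batch 6 the names show only the group, and these are given as 9 plates without a test. All 95 well barcodes recur across plates, as wells of a plate design do. All 9 neutrophil markers were detected in every group, at a summed 142801 to 151625 CPM (UMIs per 1000000 UMIs) in PBS-primed PB samples and 256866 to 330086 CPM in the other samples of batch 7. Fits of the 4 groups used the UMI sums of the 8 samples, edgeR's quasi-likelihood test and Benjamini-Hochberg adjustment at 0.05 over 8478 genes. TMM scaling, which sets the totals by the bulk of genes, raised CPM in LPS-primed PB samples (factors 0.75 and 0.69) and lowered it in those primed with PBS (1.35 and 1.37). Over all genes the log2 fold change, LPS-primed against PBS-primed PB, had a median of -0.11 with TMM and -1.02 with library totals alone, and the calls were 294 higher and 40 lower with TMM against 140 higher and 268 lower with library totals. Unless TMM is named, a CPM below uses the library total.

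Ccrl2 was higher in LPS-primed PB neutrophils than in the other 3 groups. In LPS-primed PB the samples held 243 and 321 CPM (mean 282 ± 55.2, SD, n = 2), from 1555 and 1889 UMIs. Those of PBS-primed PB held 2.38 and 4.32 CPM (mean 3.35 ± 1.37, SD, n = 2), from 12 and 14 UMIs. Both LPS-primed samples lay far above both PBS-primed samples.

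PBS-primed BM samples held 2 and 23 Ccrl2 UMIs (0.287 and 2.75 CPM), and all 23 of the second sample came from 2 cells. LPS-primed BM samples held 0 UMIs in 183 cells, which by counting error alone allows up to 1.64% of their cells with a UMI. The LPS-primed BM plate of batch 6 went past that limit, with 12 UMIs in 11 of 88 cells (12.5%). Of the 4 groups, LPS-primed PB stood alone, and no sample of the other 3 held more than 23 UMIs.

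LPS-primed against PBS-primed PB, Ccrl2 rose by 7.33 ± 0.98 on the log2 scale (SE, edgeR adjusted p = 0.00215), and was 1 of the 3 members called where 3.94% of all genes tested were. Without PBS-primed PB sample 1 the log2 fold change was 6.88 (adjusted p = 0.0560), past the threshold no longer. LPS-primed PB neutrophils held at least 1494-fold more Ccrl2 CPM than LPS-primed BM neutrophils, with the latter set to a floor of 3 UMIs over the group (edgeR adjusted p = 0.000489). This bound holds for the samples of batch 7, and in batch 6, where the LPS-primed BM plate was above 0, the ratio of the levels pooled over plates was 179 (235 against 1.32 CPM). Ccrl2 was again 1 of 3 members called, against 3.73% of all genes. The LPS effect on Ccrl2 differed between PB and BM (interaction, edgeR adjusted p = 0.00206, with 1.5% of all genes called), and the fitted fold of this difference depends on the prior count and is not given. With limma-trend the adjusted p was 0.0924. Within BM the few Ccrl2 UMIs gave an edgeR adjusted p of 0.286, and DESeq2 called the difference (adjusted p = 0.0101). Between PBS-primed PB and BM the log2 fold change was 0.55 (adjusted p = 0.809), and it was -0.29 without PBS-primed BM sample 1.

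In batch 6, LPS-primed PB plates held 215 and 261 CPM of Ccrl2, a range that overlaps that of the labelled samples. PBS-primed PB plates held 101 and 42.6 CPM, above every PBS-primed sample of batch 7 but below every LPS-primed PB plate. On these PBS-primed plates 2 cells held 71.6% and 74.0% of all Ccrl2 UMIs. BM plates held at most 5.20 CPM.

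**Figure D1:**
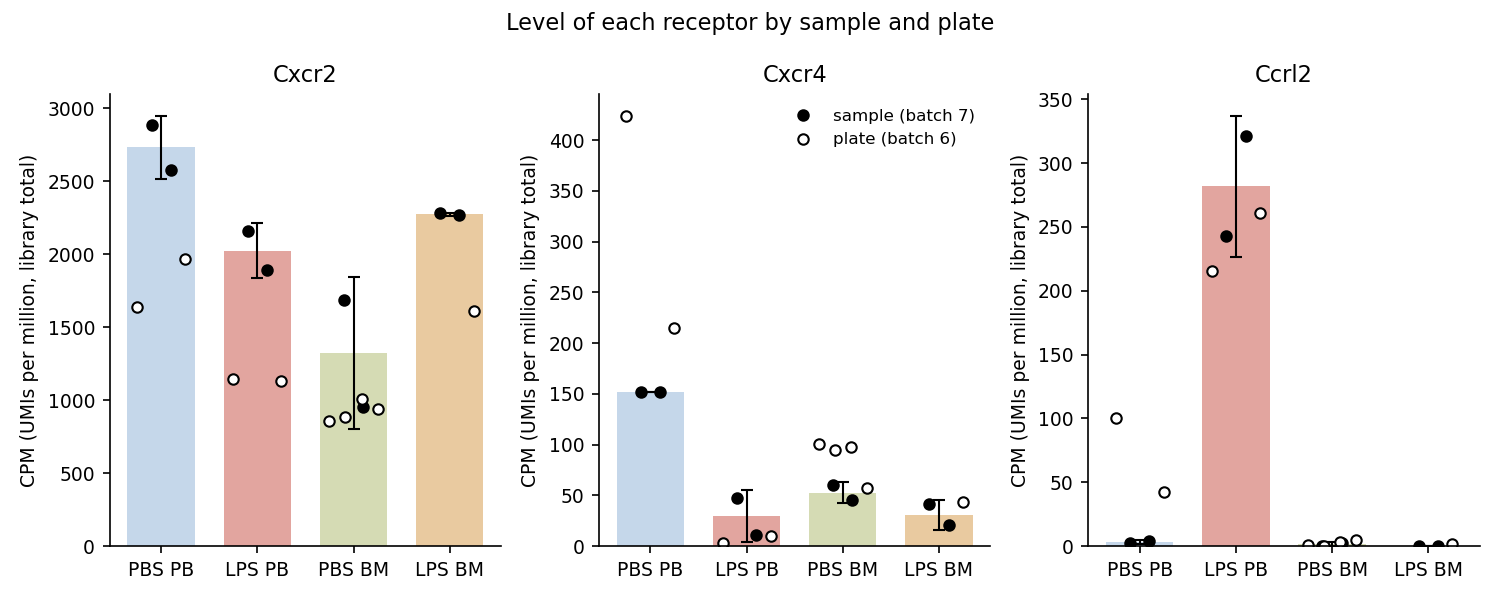
CPM of each receptor, scaled to library totals, in the 4 groups. Bars give the mean of 2 samples with the SD, filled points the samples and open points the plates of batch 6. LPS-primed PB neutrophils stand apart for Ccrl2 at 215 to 321 CPM.

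Within LPS-primed PB neutrophils Ccrl2 was unevenly spread over the cells. With each cell thinned to 5000 UMIs, 24 of 91 cells of sample 1 (26.4%, exact Clopper-Pearson 95% interval 17.7% to 36.7%) and 24 of 86 cells of sample 2 (27.9%, 18.8% to 38.6%) held a UMI. The share was 1.11% and 6.98% in PBS-primed PB, 1.20% and 1.09% in PBS-primed BM and 0% in both LPS-primed BM samples. The intervals cover counting error only, and an exact permutation test of 2 against 2 samples cannot go below p = 0.333 two-sided. Without thinning the shares were 65.9% and 74.4% in LPS-primed PB against 11.1% and 16.3% in PBS-primed PB.

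A cut at 500 CPM, chosen after the values were seen, left 14 of 91 and 11 of 86 cells of the LPS-primed PB samples, and these held 81.0% and 89.0% of their Ccrl2 UMIs. The batch 6 plates gave 13 of 95 and 12 of 91 cells with 76.2% and 80.7% of the UMIs. PBS-primed PB samples had 0 such cells and the batch 6 PBS-primed PB plates 3 each. The remaining cells of the LPS-primed PB samples still averaged 53.3 and 40.5 CPM, above the 2.38 and 4.32 CPM found with PBS. Most cells above the cut lay in cluster 2 of the authors' clustering, 12 of 14 and 10 of 11 in the samples. Cluster 2 held 42 of all 91 and 42 of all 86 cells of these samples. Cxcr2, the partner receptor, stood at 2221 and 1876 CPM in the Ccrl2-high cells and at 2150 and 1892 CPM in the rest, so the direction differed between the samples. On the batch 6 plates it was 698 and 1552 CPM against 1188 and 1051 CPM, again without a shared direction.

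**Figure D2:**
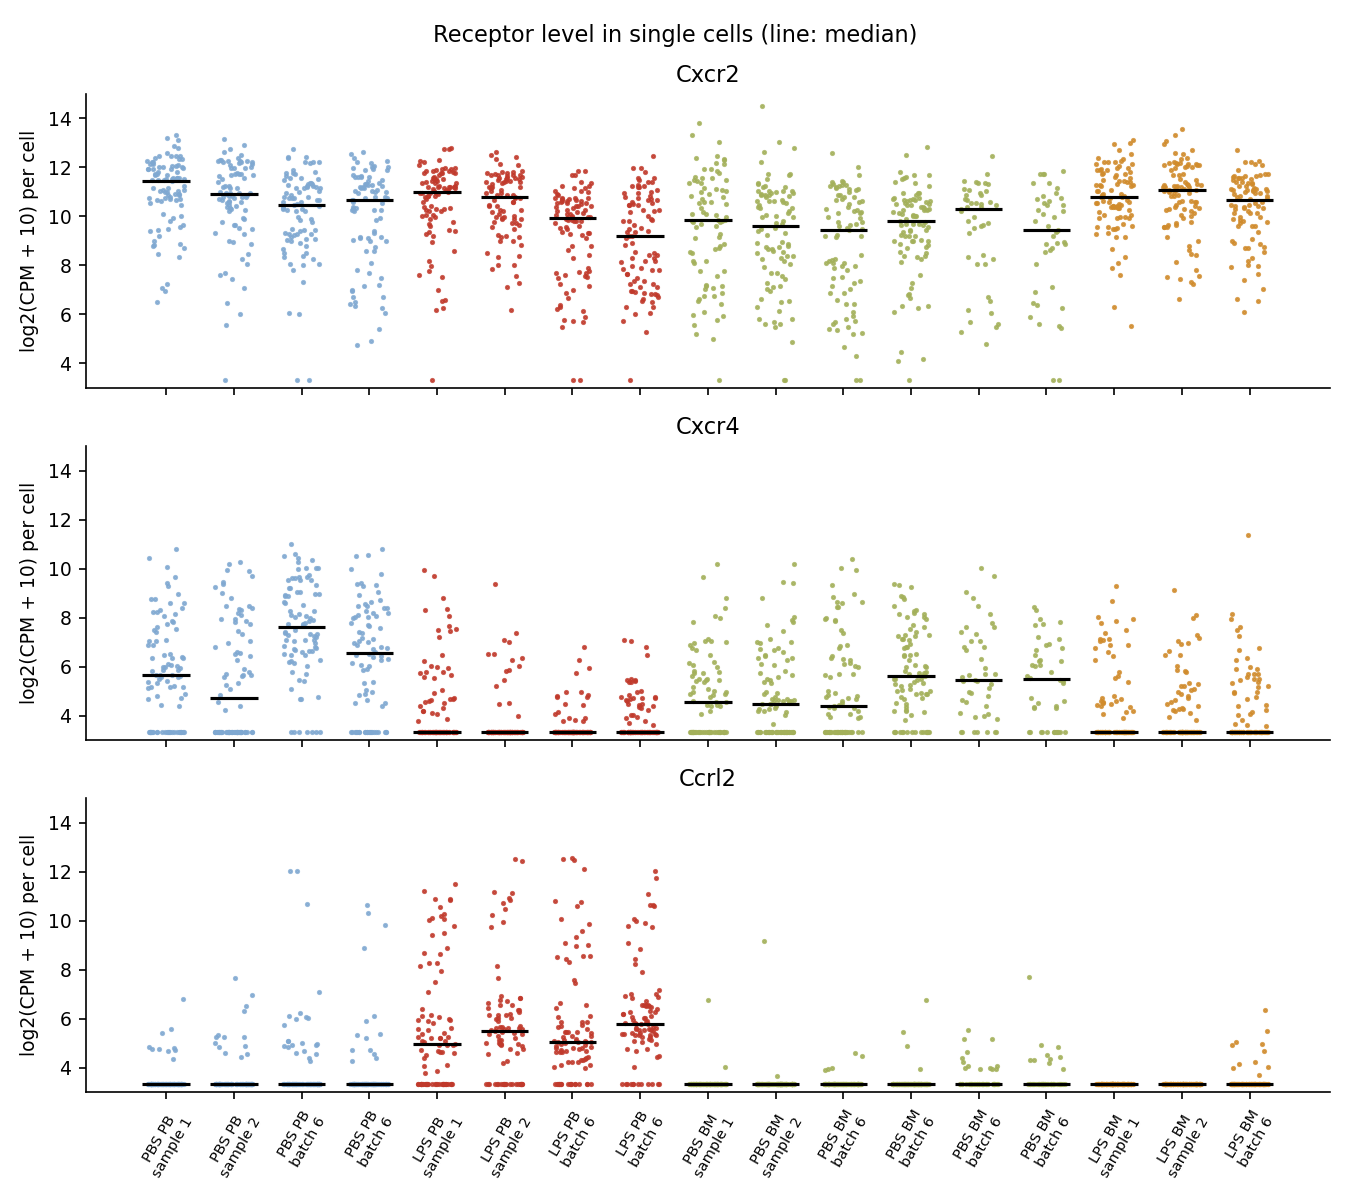
Level of each receptor in every cell, as log2(CPM + 10), by sample and by batch 6 plate, with the median as a line. Ccrl2 has a separate tail of high cells in LPS-primed PB, Cxcr4 has a median of 0 CPM in LPS-primed groups, and Cxcr2 has a lower tail in PBS-primed BM.

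Cxcr4 had its highest level in PBS-primed PB neutrophils. Samples of PBS-primed PB held 151.7 and 152.1 CPM (mean 151.9 ± 0.297, SD, n = 2) and those of LPS-primed PB 47.6 and 11.4 CPM (mean 29.5 ± 25.6, SD, n = 2). PBS-primed BM samples held 60.2 and 45.3 CPM, and LPS-primed BM samples 41.4 and 20.7 CPM. PBS-primed PB lay above all other samples, while LPS-primed PB overlapped both BM groups and the BM groups did not overlap each other.

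LPS-primed against PBS-primed PB, the log2 fold change of Cxcr4 was -1.48 ± 0.77 (SE, 95% interval -3.17 to 0.21, edgeR adjusted p = 0.358). It was -2.81 without LPS-primed PB sample 1 and -0.84 without sample 2, and neither was called. The same direction was larger in batch 6, where the PBS-primed PB plates held 424 and 215 CPM and the LPS-primed PB plates 3.49 and 10.4 CPM. A fit of both batches, with the plates of a group pooled to 1 library and batch as a term, gave -2.24 ± 0.66 (adjusted p = 0.0400) and passed the threshold. The test on the 8 labelled samples alone therefore made no call on Cxcr4, and the interval spans from a large drop to a small rise.

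In BM the log2 fold change of Cxcr4 was -0.96 ± 0.76 (SE, edgeR adjusted p = 0.844), and -1.54 or -0.55 without LPS-primed BM sample 1 or 2. The batch 6 plates held 57.5 to 101 CPM in PBS-primed BM and 43.6 CPM in LPS-primed BM, ordered as in the samples. The LPS effect in PB minus that in BM was -0.53 and did not pass the test (adjusted p = 0.937, 95% interval -2.87 to 1.82). Between PBS-primed PB and BM it was 1.01 ± 0.76 (adjusted p = 0.532).

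Among single cells the median Cxcr4 level was 40.9 and 16.1 CPM in PBS-primed PB, sample by sample, and 0 CPM in both LPS-primed PB and both LPS-primed BM samples. After thinning, 28.9% and 31.4% of PBS-primed PB cells held a UMI against 12.1% and 6.98% of LPS-primed PB cells. The BM shares were 22.9% and 16.3% with PBS against 12.1% and 10.9% with LPS, so the LPS-primed samples lay below the PBS-primed samples in both tissues. The batch 6 plates had 55.7% and 42.9% of PBS-primed PB cells against 3.16% and 3.30% of LPS-primed PB cells.

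In PB samples the B cell, T and NK cell and platelet markers were, like Cxcr4, higher with PBS than with LPS. The ranges of the monocyte and macrophage, erythroid, and eosinophil and basophil markers overlapped. Of the 4 early progenitor markers in the table, Kit alone went the other way, at 0 CPM with PBS and 13.6 to 37.4 CPM with LPS. The other markers of that list, Mpo, Elane and Prtn3, were at 0 in both. In PBS-primed PB samples all 4 B cell markers in the table were detected, at a summed 80.1 to 108 CPM, against 0.469 to 0.510 CPM in LPS-primed PB. The 4 T and NK cell markers summed to 272 to 295 CPM against 1.56 to 1.87 CPM, with Cd3e at 0 in LPS-primed PB, and the 4 platelet markers, all above 0 in both, to 288 to 423 CPM against 73.4 to 124 CPM. The 6 monocyte and macrophage markers ranged over 96.6 to 401 CPM against 122 to 212 CPM, with Cx3cr1 at 0 in PBS-primed PB and F13a1, Ccr2, Cx3cr1 and Ly86 at 0 in LPS-primed PB. Without cells in which such lists took over 0.1% of UMIs (26 and 14 cells of PBS-primed PB, 11 and 11 of LPS-primed PB), Cxcr4 was 112 and 139 CPM against 41.1 and 11.1 CPM. The log2 fold change was then -1.48 and again not called (adjusted p = 0.381), and that of Ccrl2 6.98 (adjusted p = 0.00299). On the batch 6 PBS-primed PB plates the same filter took 54 of 88 and 41 of 84 cells, Cxcr4 was 498 and 218 CPM in the rest, and Ccrl2 161 and 4.41 CPM, with 91.7% of the 161 CPM in 1 cell. In PB samples of batch 7 the 4 hepatocyte markers (Alb, Apoa2, Ttr and Mup3) summed to 1300 to 2039 CPM with PBS. With LPS they summed to 727 to 755 CPM. BM samples held at most 15.9 CPM of them, and PB plates of batch 6 at most 1.08 CPM. BM plates of batch 6 held at most 80.6 CPM, on a PBS-primed plate. The part of these hepatocyte transcripts in the results was not tested.

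Cxcr2 was detected in nearly every cell of every group. Its level was 2886 and 2576 CPM in PB with PBS and 2159 and 1889 CPM in PB with LPS. In BM it was 1689 and 953 CPM with PBS and 2279 and 2267 CPM with LPS. On this scale the 4 groups did not overlap, with PBS-primed PB highest and PBS-primed BM lowest. With TMM scaling the order changed, since LPS-primed PB samples then held 2891 and 2725 CPM, PBS-primed PB 2151 and 1883 CPM, LPS-primed BM 2094 and 2130 CPM and PBS-primed BM 1756 and 1026 CPM. PBS-primed BM was lowest on both scales.

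In PB the direction of the Cxcr2 difference rests on the scaling. The log2 fold change in LPS-primed against PBS-primed PB was 0.48 ± 0.24 with TMM (SE, edgeR adjusted p = 0.343) and -0.44 ± 0.24 with library totals (adjusted p = 0.311). In UMIs per cell the samples held 162 and 97.1 with PBS and 152 and 129 with LPS, so that their ranges overlapped. The median ratio of ERCC spike-ins given by the authors was 0.633 and 0.664 in PBS-primed PB cells and 0.520 and 0.498 in LPS-primed PB cells, and its part in the levels was not tested. The batch 6 plates held 1640 and 1964 CPM with PBS and 1146 and 1132 CPM with LPS.

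In BM Cxcr2 was higher with LPS on both scales, though the difference did not pass the test. The log2 fold change was 0.60 ± 0.24 with TMM (SE, 95% interval 0.08 to 1.13, unadjusted p = 0.0288 by edgeR, adjusted p = 0.608). Its size rests on the PBS-primed BM samples, since it was 1.04 without sample 1 (adjusted p = 0.125) and 0.27 without sample 2 (adjusted p = 0.665). In this comparison 0 of 3 members were called, where 0.0708% of all genes were. At an unadjusted p under 0.05, Cxcr2 and Ccrl2 were the 2 members, limma-trend called 0 and DESeq2 called Ccrl2. Over all genes 684 of 8478 had such a p by edgeR, and DESeq2 called 196. In batch 6 the LPS-primed BM plate held 1613 CPM of Cxcr2 and the 4 PBS-primed BM plates 854 to 1005 CPM. The ratio of group levels was 1.72 in batch 7 and 1.78 in batch 6.

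As a ratio, though not in CPM, the gap in BM was widest in the lower part of the cell distribution of the samples. The lower quartile of Cxcr2 per cell was 208 and 224 CPM in PBS-primed BM samples against 1024 and 1040 CPM in LPS-primed BM samples, and 131 to 436 CPM against 771 CPM on the batch 6 plates. The medians were 911 and 783 CPM against 1767 and 2133 CPM, and the upper quartiles 2454 and 1867 CPM against 3412 and 3849 CPM. After thinning, 80.7% and 80.4% of PBS-primed BM cells held a Cxcr2 UMI against 95.6% and 96.7% of LPS-primed BM cells. The same share in PB was 95.6% and 95.3% with PBS and 96.7% and 96.5% with LPS, a difference of 1.16 percentage points. Without thinning, 98.8% and 97.8% of PBS-primed BM cells held a Cxcr2 UMI, against 100% of cells in both LPS-primed BM samples. A thinned share falls with fewer cells that hold the transcript and also with less transcript per cell. The difference in thinned shares therefore does not count cells without the transcript.

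PBS-primed PB against PBS-primed BM, the log2 fold change of Cxcr2 was 0.54 ± 0.24 (SE, edgeR adjusted p = 0.262), and 0 of 3 members were called where 2.61% of all genes were. Cxcr2 was the 1 member with an unadjusted p under 0.05 by edgeR, as were 1569 of 8478 genes, and limma-trend and DESeq2 called 0 members. With library totals the value was 1.05 (adjusted p = 0.0414), and without PBS-primed BM sample 1, the higher of the 2, it was 0.97 (adjusted p = 0.0397), both past the threshold. Between LPS-primed PB and BM it was 0.41 with TMM and -0.17 with library totals (adjusted p = 0.399 and 0.750). The LPS effects in PB and BM differed by -0.13 on the log2 scale (95% interval -0.87 to 0.62, adjusted p = 0.976).

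**Figure D3:**
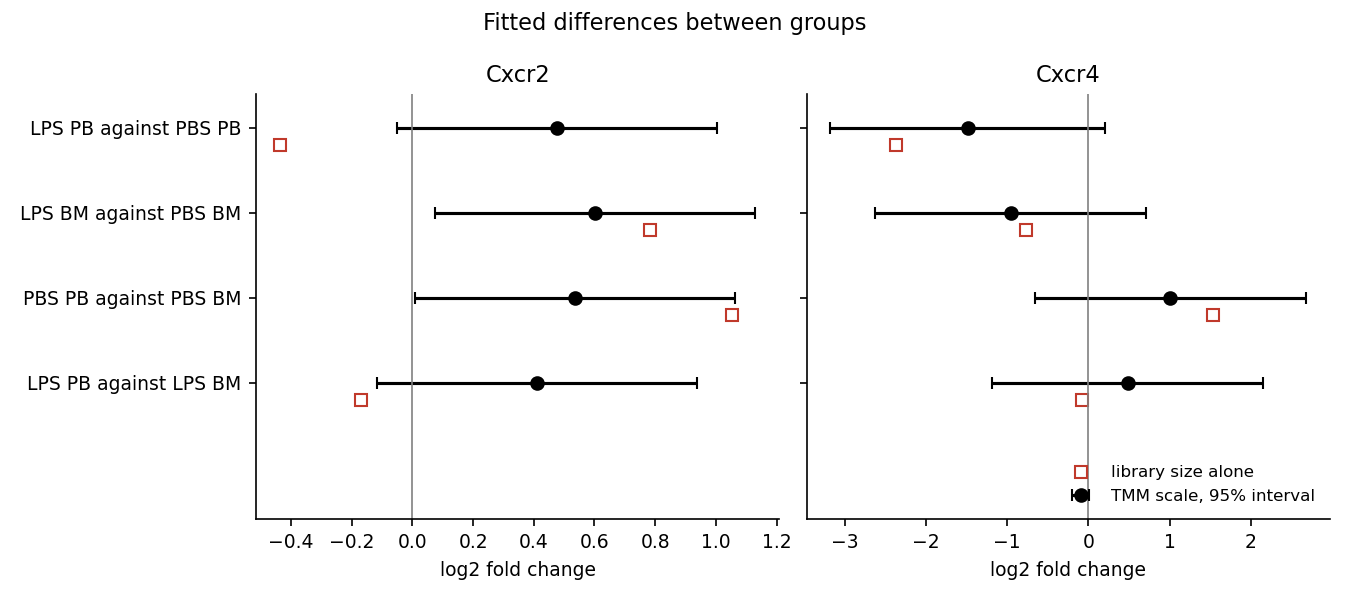
Log2 fold change of Cxcr2 and Cxcr4 in 4 comparisons. Points give the TMM fit with its 95% interval and open squares the fit with library totals. The 2 scales differ in sign for Cxcr2 in LPS-primed against PBS-primed PB, at 0.48 and -0.44.

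Granule transcripts are made in early neutrophil stages of the marrow and decline as the cells mature. The BM cells of each sample were ranked by the share of their UMIs in 15 granule genes, a list that holds none of the 3 receptors, and divided into lower, middle and upper terciles. In PBS-primed BM sample 1, Cxcr2 was 2303, 2343 and 1022 CPM from the lower to the upper tercile, and in sample 2 it was 1904, 1093 and 547 CPM. In LPS-primed BM sample 1 it was 3309, 2599 and 1364 CPM, and in sample 2 3517, 2379 and 1639 CPM. Cells poor in granule transcripts thus held more Cxcr2 relative to their total UMIs in all 4 samples. In CPM the lower tercile exceeded the upper tercile by 2.12 to 6.09 times over the 9 BM samples and plates.

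Each LPS-primed BM sample lay above both PBS-primed BM samples in all terciles. The median granule share was 1.56% and 2.78% of UMIs in the lower tercile of PBS-primed BM cells and 3.12% and 3.13% in that of LPS-primed BM cells, and 12.0% and 14.3% against 12.9% and 14.8% in the upper tercile. Cells of the upper tercile were also deeper than those of the lower tercile in all 4 samples, with a median of 51572 to 112908 UMIs against 24004 to 66093. The order of Cxcr2 in CPM therefore need not hold for Cxcr2 UMIs per cell. Cxcr4 showed no such order in CPM. It was higher in the lower than in the upper tercile in 5 of the 9 BM samples and plates. These values describe cells of the same samples and carry no test.

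**Figure D4:**
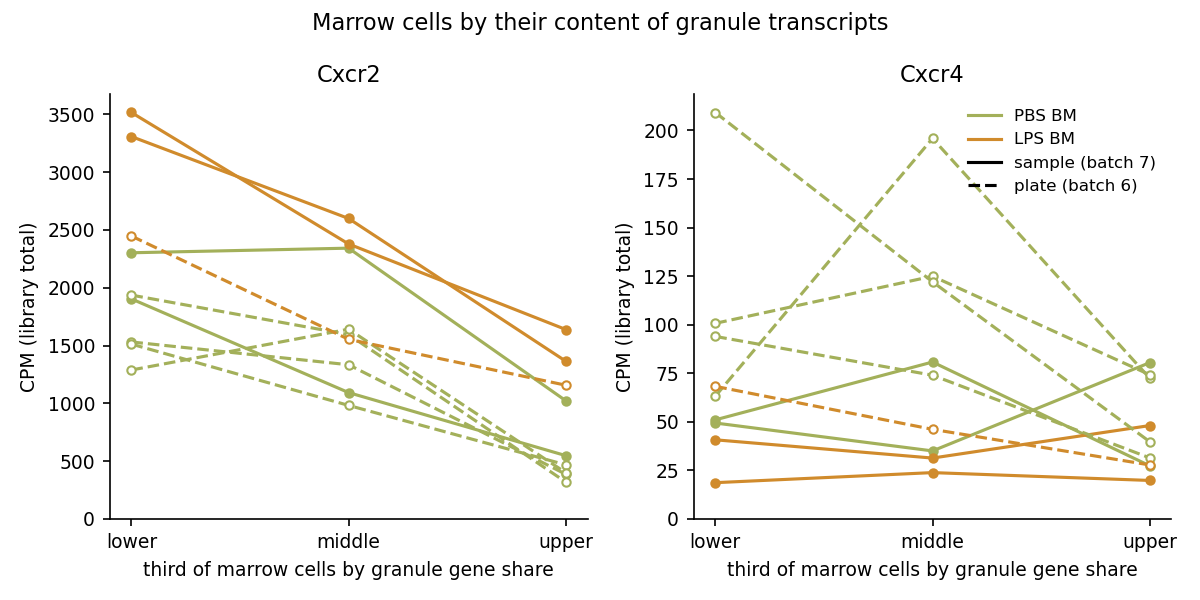
CPM of Cxcr2 and Cxcr4 in BM cells ranked within each sample or plate by the share of UMIs in granule genes. Solid lines are samples and dashed lines batch 6 plates. Cxcr2 is lower in the upper tercile on all 9 lines, and Cxcr4 on 5 of them.

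The authors' clusters were made from these same cells, so the values by cluster are a description. LPS-primed PB cells of the samples lay mostly in cluster 1, which also holds nearly all PBS-primed PB cells, and in cluster 2. In cluster 1 (48 and 35 cells) Cxcr2 was 2777 and 2542 CPM, from 7628 and 4093 UMIs. In cluster 2 (42 and 42 cells) it was 1686 and 1617 CPM, from 6064 and 6472 UMIs. Per cell, sample 2 held more Cxcr2 UMIs in cluster 2 than in cluster 1, so the order in CPM does not hold for UMIs per cell there. Cxcr4 was 99.7 and 19.9 CPM in cluster 1 and 8.34 and 6.49 CPM in cluster 2. In CPM Ccrl2 ran the other way, with 67.0 and 107 CPM in cluster 1 and 380 and 427 CPM in cluster 2. Cluster 1 cells of LPS-primed PB lay above those of PBS-primed PB in Ccrl2 (2.38 and 4.10 CPM). The Cxcr2 level in the latter was 2883 and 2605 CPM on library totals, and since the order of the PB groups rests on the scaling, none is given for the cluster. In batch 6 cluster 2 held 94 of 95 and 91 of 91 LPS-primed PB cells.

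Cells with Cxcr4 mostly held Cxcr2 too. After thinning, 26 of 26 and 25 of 27 Cxcr4-positive cells of PBS-primed PB also held a Cxcr2 UMI, as did 11 of 11 and 5 of 6 of LPS-primed PB. The share of all cells with Cxcr2 was 95.3% to 96.7% in these samples, so both receptors in 1 cell followed from the breadth of Cxcr2. In LPS-primed PB 23 of 24 cells with Ccrl2 held Cxcr2 in each sample. On the LPS-primed PB plates of batch 6 it was 16 of 25 and 28 of 33 cells. Of all cells on these plates 81.1% and 75.8% held Cxcr2. Across cells, Spearman's rho between Cxcr2 and Cxcr4 CPM ranged from -0.14 to 0.10 in the 8 samples, over 83 to 92 cells that share a library.

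The genes most like each member were taken by Pearson's r of log2(CPM + 10) over the 8 samples among 2307 genes, as a description with no p. For Ccrl2 they were Dusp16, a phosphatase of MAP kinases (r = 0.997), Cxcl10, an interferon-induced chemokine (0.993), and Bcl2a1b, an anti-apoptotic gene with near-identical copies that may share its reads (0.990). Dusp16 stood at 224 and 201 CPM in LPS-primed PB and at most 3.70 CPM elsewhere, and Bcl2a1b at 271 and 223 CPM against at most 4.62 CPM. The 2307 genes had a mean of at least 50 CPM, which these 3 genes reached through LPS-primed PB. Ccrl2 was high in that group alone, so r near 1 restates the difference between groups and adds no further evidence for these 3 genes. Over the 17 samples and plates of both batches their r with Ccrl2 was 0.901, 0.895 and 0.977. For Cxcr4 they were Rps24, Rps25 and Rasa3 (0.973, 0.971 and 0.966), with 0.683, 0.484 and 0.862 over both batches. For Cxcr2 they were Arid4b, Ddx5 and Tbc1d14 (0.983, 0.967 and 0.951), with 0.603, 0.593 and 0.679 over both batches.

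Of 30 other chemoattractant receptors listed, 17 were in the table and 12 were tested. Differences from here on are log2 fold changes on the TMM scale. In LPS-primed against PBS-primed PB 4 rose and 0 fell, with a median log2 fold change of 0.62 against -0.11 over all genes. Of all genes 3.94% were called there, 294 higher and 40 lower. The shares were 2.61% in PBS-primed PB against BM, 3.73% in LPS-primed PB against BM and 1.5% for the difference between LPS effects. No list was tested against these shares. The formyl peptide receptor genes Fpr2 and Fpr1, whose products sense bacterial peptides, rose by 2.93 and 2.12 (edgeR adjusted p = 0.000452 and 0.00392). The leukotriene B4 receptor gene Ltb4r1 rose by 1.78 and Ccr1 by 1.01 (0.0316 and 0.0432). With library totals the values of Fpr2, Fpr1, Ltb4r1 and Ccr1 were 2.00, 1.20, 0.86 and 0.09, and of these Fpr2 was called. Fpr2 stood at 210 and 441 CPM with PBS and at 1210 and 1404 CPM with LPS. Fpr2 and Ltb4r1 were lower in PBS-primed PB than in PBS-primed BM (-1.58 and -2.24), where Fpr2 was not called with library totals (-1.05, adjusted p = 0.112). Ptafr, the receptor gene for platelet-activating factor, lay higher in LPS-primed PB than in BM after LPS by 2.06, and by 1.46 without a call with library totals (adjusted p = 0.160). The LPS effect on Fpr2 was larger in PB than in BM by 2.25 (adjusted p = 0.0303), and with library totals the difference was 1.13 (adjusted p = 0.226).

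Of 11 ligands of the members, 8 were in the table and 5 tested. Cxcl2, a ligand of CXCR2, rose in LPS-primed PB by 5.01 ± 0.89 (SE, edgeR adjusted p = 0.00928), from 21.4 and 46.9 CPM to 665 and 501 CPM. LPS-primed BM held 84.1 and 41.3 CPM of Cxcl2, and LPS-primed PB lay above it by 3.80 (adjusted p = 0.0296, and 0.0674 with library totals). Ppbp, a ligand of CXCR2 and also 1 of the 4 platelet markers, was at 0 UMIs in all 4 BM samples and at 169 and 97.2 CPM (PBS) and 59.8 and 10.9 CPM (LPS) in PB. It was called in both comparisons of PB with BM. Ccl5 was called in LPS-primed PB (252 and 109 CPM) against LPS-primed BM, at 0 in both samples. The PBS-primed PB samples held 270 and 1.23 CPM of Ccl5, and it was not called in LPS-primed against PBS-primed PB.

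Of 29 genes of receptor signalling and desensitisation, 27 were tested. In LPS-primed against PBS-primed PB 2 rose and 0 fell, where 3.94% of all genes were called, 294 higher and 40 lower. Among them Rac2, a GTPase of the neutrophil cytoskeleton, rose by 0.82 (edgeR adjusted p = 0.0316), and it turned to -0.11 with library totals. In PBS-primed PB against BM the kinase gene Fgr was higher (1.11) and the G protein regulator gene Rgs18 lower (-2.62). In LPS-primed PB against BM Pik3r5, a subunit of the G protein-coupled PI3 kinase, was higher by 1.98 (adjusted p = 0.0446), and by 1.40 without a call with library totals (adjusted p = 0.174).

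Of 17 adhesion and egress genes 16 were tested, and 4 rose and 0 fell in LPS-primed against PBS-primed PB. There 3.94% of all genes were called, 294 higher and 40 lower. Cd177, a surface protein of neutrophils, rose by 3.39, from 83.3 and 96.0 CPM to 370 and 616 CPM (edgeR adjusted p = 0.000113). Cd47, a signal against engulfment, rose by 2.29 and the integrin gene Itgam by 1.29. With library totals Cd177 was 2.45 and called, while Cd47 and Itgam were 1.37 and 0.36 and not called. In PBS-primed PB against BM, Cd177 and Itgam were lower (-4.45 and -1.89), and the G-CSF receptor gene Csf3r and the selectin ligand gene Selplg higher by 1.31 and 1.11. In LPS-primed PB against BM, Csf3r and Selplg were higher by 1.42 and 1.22, which with library totals became 0.83 and 0.63 and were not called (adjusted p = 0.106 and 0.141). Icam1 was also called there, at 70.1 and 76.0 CPM against 0.129 and 0.122 CPM. The LPS effect on Cd177 was larger in PB than in BM by 3.48 (adjusted p = 0.00137).

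Of 19 transcription factor genes linked to the receptors 17 were tested. In LPS-primed against PBS-primed PB 1 was called, where 3.94% of all genes were. Cebpb, a factor of emergency granulopoiesis, rose in LPS-primed PB by 2.02 (edgeR adjusted p = 0.0131) and its LPS effect was larger in PB than in BM by 3.18 (0.0113), with 1.11 and 2.09 and no call with library totals. In PBS-primed PB against BM Klf2, a factor of quiescence and trafficking, was higher (2.43) and Cebpe, a factor of granule gene expression, lower (-4.58). In LPS-primed PB against BM Cebpb, Klf2 and the glucocorticoid receptor gene Nr3c1 were higher by 2.39, 1.98 and 1.75. With library totals Cebpb and Klf2 were still called (1.82 and 1.41) and Nr3c1 was not (1.16, adjusted p = 0.145). In LPS-primed against PBS-primed BM 0 genes of the 5 lists were called by edgeR or by limma-trend. At an unadjusted p under 0.05 edgeR had 1 of the other receptors, 2 ligands, 5 signalling, 3 adhesion and 5 transcription factor genes, and DESeq2 called 1 ligand, 1 signalling gene and 2 transcription factor genes. Over all genes in that comparison, 684 of 8478 had such a p by edgeR, and DESeq2 called 196. Of the calls made with TMM in the 5 lists, library totals kept 3 of 12 in LPS-primed against PBS-primed PB, 10 of 11 in PBS-primed PB against BM, 6 of 12 in LPS-primed PB against BM and 1 of 3 for the difference between LPS effects, and turned the sign of Rac2 alone. The comparisons share groups, so their calls are not independent.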

How the data were processed

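Per the labels and the study's methods, the authors trimmed reads (cutadapt 1.15), aligned them to mm9 (STAR 2.6.0a), removed duplicates by UMI and counted genes per cell barcode (HTSeq 0.11.2). The deposited values are UMI counts without normalization. The deposited annotation gives for each cell a cluster, named here by the authors' number, and an ERCC value, a fraction whose denominator is not given in the sources used here. Which gene annotation was used is not given in these sources either.

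The members and all lists were chosen with earlier results of these data known. UMIs were summed per sample, genes seen in at least 10 cells were kept (9919), and 8478 passed filterByExpr and were tested with edgeR 4.0.16 (TMM, glmQLFit, glmQLFTest, 1 model of 4 groups, 5 contrasts) in R 4.3.3, with two-sided Benjamini-Hochberg adjustment. An SE is the log2 fold change divided by the root of the F statistic. The labels do not say whether the samples of a group are separate mice, so p-values measure the spread between these samples, which was far beyond counting noise (chi-square per degree of freedom 64.0 to 110). Cells were thinned to 5000 UMIs (0 cells left out). No cell was removed in the main results, and doublets were not called. Intervals and floors (3 counts) cover counting error only. Alternatives used limma 3.58.1 and DESeq2 1.42.0. Genes named from a list are at most 4 per comparison, those called with the largest log2 fold changes and at least 50 CPM in the higher group. Some genes of the lists are counted but not reported by name here. Statistics were tested on simulated data.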

Additional observations from a re-analysis of the deposited data

Results flagged for a closer look

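The LPS effect on Ccrl2 differed between PB and BM by the test of the difference itself (edgeR adjusted p = 0.00206). Ccrl2 rose from 2.38 and 4.32 CPM to 243 and 321 CPM in PB, and went from 2 and 23 UMIs to 0 UMIs in both samples in BM. The fitted size of the difference rests on the prior count because of the 0 UMIs.

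Ccrl2 was above the level of all PBS-primed samples on the batch 6 PBS-primed PB plates, which enter no comparison of the labelled samples, with 101 CPM and 42.6 CPM. Of these UMIs 92.6% and 86.8% came from 3 cells on each plate. The cause was not tested. In groups of 2 samples no sample was tested as an outlier.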

How the results depend on the processing

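Each of the 15 member results and 5 counts of genes called was recomputed under 18 alternatives, and 250 of 270 member values kept their direction and their side of the threshold. The causes of the changes below were not tested. With library totals the log2 fold changes of Cxcr2 reversed to -0.44 in LPS PB against PBS PB and -0.17 in LPS PB against LPS BM, that of Cxcr4 to -0.071 in the latter, and Cxcr2 in PBS PB against PBS BM passed the threshold at 1.05. With the mean of per-cell CPM in limma, the same 4 values were -0.37, -0.26, -0.03 and 0.73. With both batches and batch as a term, Cxcr4 passed the threshold in LPS PB against PBS PB (-2.24) and reversed in LPS PB against LPS BM (-0.11). DESeq2 called Ccrl2 in LPS BM against PBS BM (-6.30), limma-trend did not call the Ccrl2 difference between LPS effects (9.36), and with thinned cells the Cxcr2 difference between LPS effects reversed (0.0125).

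Without one sample at a time, Ccrl2 in LPS PB against PBS PB ranged from 6.88, without PBS-primed PB sample 1 and then no longer called, to 7.75. Cxcr2 in PBS PB against PBS BM ranged from 0.20 to 0.97, and was called without PBS-primed BM sample 1. Ranges that crossed 0 were -0.29 to 2.95 for Ccrl2 in PBS PB against PBS BM, -0.82 to 1.15 for Cxcr4 in LPS PB against LPS BM, and, for the difference between LPS effects, -0.56 to 0.21 for Cxcr2 and -1.83 to 0.14 for Cxcr4. A group left with 1 sample is assumed to vary like the others. The genes called ranged from 146 to 400 (LPS PB against PBS PB), 2 to 28 (LPS BM against PBS BM), 108 to 342 (PBS PB against PBS BM), 144 to 382 (LPS PB against LPS BM) and 80 to 168 (difference between LPS effects). The lowest counts came without a PBS-primed PB sample in the first 3 of these and without an LPS-primed BM sample in the other 2.

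In the same order, the counts of genes called were 334, 6, 221, 316 and 127. DESeq2 gave 1057, 196, 962, 951 and 500, and both batches together 651, 27, 416, 532 and 203. The mean of per-cell CPM gave 512 in LPS PB against PBS PB, 477 in PBS PB against PBS BM and 32 for the difference between LPS effects, and limma-trend gave 342 in PBS PB against PBS BM. LPS BM against PBS BM gave 10 with library totals, 15 without the filter on low counts, 49 with thinned cells and 13 with a replicate block, and the difference between LPS effects gave 64 with library totals. No shared shift by replicate number was seen. The correlations between groups of the differences between replicates 1 and 2 were -0.033 to 0.026 over 2271 genes. This cannot exclude that samples of equal number share a mouse or a run. With the replicate block no member changed its call. The removal of cells with markers of other types, and the 500 CPM cut, were chosen after seeing the data, and the former changed no member's call or direction.

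For shares of cells with a UMI, LPS minus PBS in PB and then BM, thinning gave 1.16 and 15.6 percentage points for Cxcr2, -20.6 and -8.12 for Cxcr4 and 23.1 and -1.15 for Ccrl2. Without thinning these were 0.032 and 1.69, -32.1 and -20.1, and 56.5 and -2.29, and with at least 2 UMIs -2.23 and 5.19, -34.8 and -13.9, and 53.2 and -0.54. Above 500 CPM of Ccrl2 they were 14.1 and -0.54. The common dispersion of 1.06 limits what 2 samples per group can show.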
